A study of Sus scrofa with 59 samples.

Results

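The genes described here encode nuclear subunits of the mitochondrial respiratory chain and of the ATP synthase. They were chosen by name alone: all genes whose symbol on the array starts with NDUF, UQCR, COX followed by a number from 4 to 8, CYCS, CYC1 or ATP5, each through its brightest probe set. The rule found 60 of the 6765 genes that had a symbol of their own on the array. Of these, 32 belonged to complex I, 2 to complex III, 7 to complex IV and 14 to complex V. NDUFA4, cytochrome c (CYCS) and 3 complex I assembly factors (NDUFAF1, NDUFAF2 and NDUFAF3) were kept apart. All 60 were bright enough to be tested. A further 4 probe sets carried several symbols, 1 of which fitted the rule, and were not used. No gene encoded in mitochondrial DNA was among the annotated probe sets.

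RNA came from the longissimus dorsi, the long muscle of the back, of 59 crossbred pigs (LD/LW x Duroc) that were 170 days old. The animals grew up together on an experimental farm with free access to feed, and the muscle was snap frozen at slaughter, per the labels. Each pig was measured once, on 1 Affymetrix porcine array. The study asked how expression shortly after death relates to carcass and meat quality traits, but the labels used here give no trait value and no sex per pig. All 59 pigs therefore formed 1 group, with no treated and no control animals, and the results below describe how the genes differed between pigs of that group. The precision of every value is limited by the number of arrays.

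Complex I takes electrons from NADH, complex III passes them to cytochrome c, and complex IV hands them to oxygen. The proton gradient that these 3 complexes build drives complex V, the ATP synthase. In mammals slow and other oxidative muscle fibres are rich in mitochondria, and the long back muscle of the pig is mostly made of fast, glycolytic fibres. Several complex IV subunits exist as a heart and muscle isoform and as a ubiquitous isoform, encoded by different genes.

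Values are GCRMA-normalised and were read as log2. Array medians lay between 6.23 and 6.30, and the muscle transcripts CKM (14.53 to 14.70), TTN (14.15 to 14.35) and DES (12.67 to 13.36) were bright in every pig. The difference between the 3' and 5' probe sets of the array's actin, GAPDH and elongation factor controls, a sign of RNA quality, had a median of 1.16 log2 and ran from 0.937 to 2.00. Its r with the mean of the 60 genes was 0.303 over all pigs and 0.339 without pig 72, and its part in the results was not tested beyond the added term reported in the closing section. Pig 72 stood apart. It had the highest mean of the 60 genes, the highest slow fibre, TCA cycle and fatty acid oxidation scores (3.36, 2.91 and 3.85 SD) and glycolysis and fast fibre scores of -3.52 and -4.02 SD. Most counts over the 60 genes are given without it as well.

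The 60 genes varied little between pigs, about as much as other bright transcripts, and most of them moved up and down together. Their SD between pigs had a median of 0.146 log2, against 0.210 for all 12000 probe sets tested. The median was 0.133 for the 454 probe sets that were at least as bright as the median of the genes described here. COX6C, a small nuclear subunit of complex IV, varied least, with an SD of 0.062 log2 and values of 13.45, 13.60 and 13.74 in the lowest, median and highest pig. CYCS, the mobile carrier of electrons between complexes III and IV, varied most (SD 0.389), with 11.26, 11.98 and 12.98 log2. COX7A2 and COX6A1, ubiquitous isoforms of complex IV subunits, followed with SDs of 0.287 and 0.284 log2. The high end of the scale compresses differences, so that a small SD of a gene near 13 log2 is not shown to be a small difference in RNA.

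The mean of the 60 genes was 11.57 log2 in the lowest pig (pig 36), 11.80 in the median pig and 12.16 in the highest (pig 72). The next highest pig (pig 21) had 12.00 log2, so that pig 72 alone added 0.161 to the range. Of the 60 genes, 33 were highest in pig 72 and 21 were lowest in pig 36. The map of all values by pig shows the gradient between these animals and the few genes that do not follow it.

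**Figure D1:**
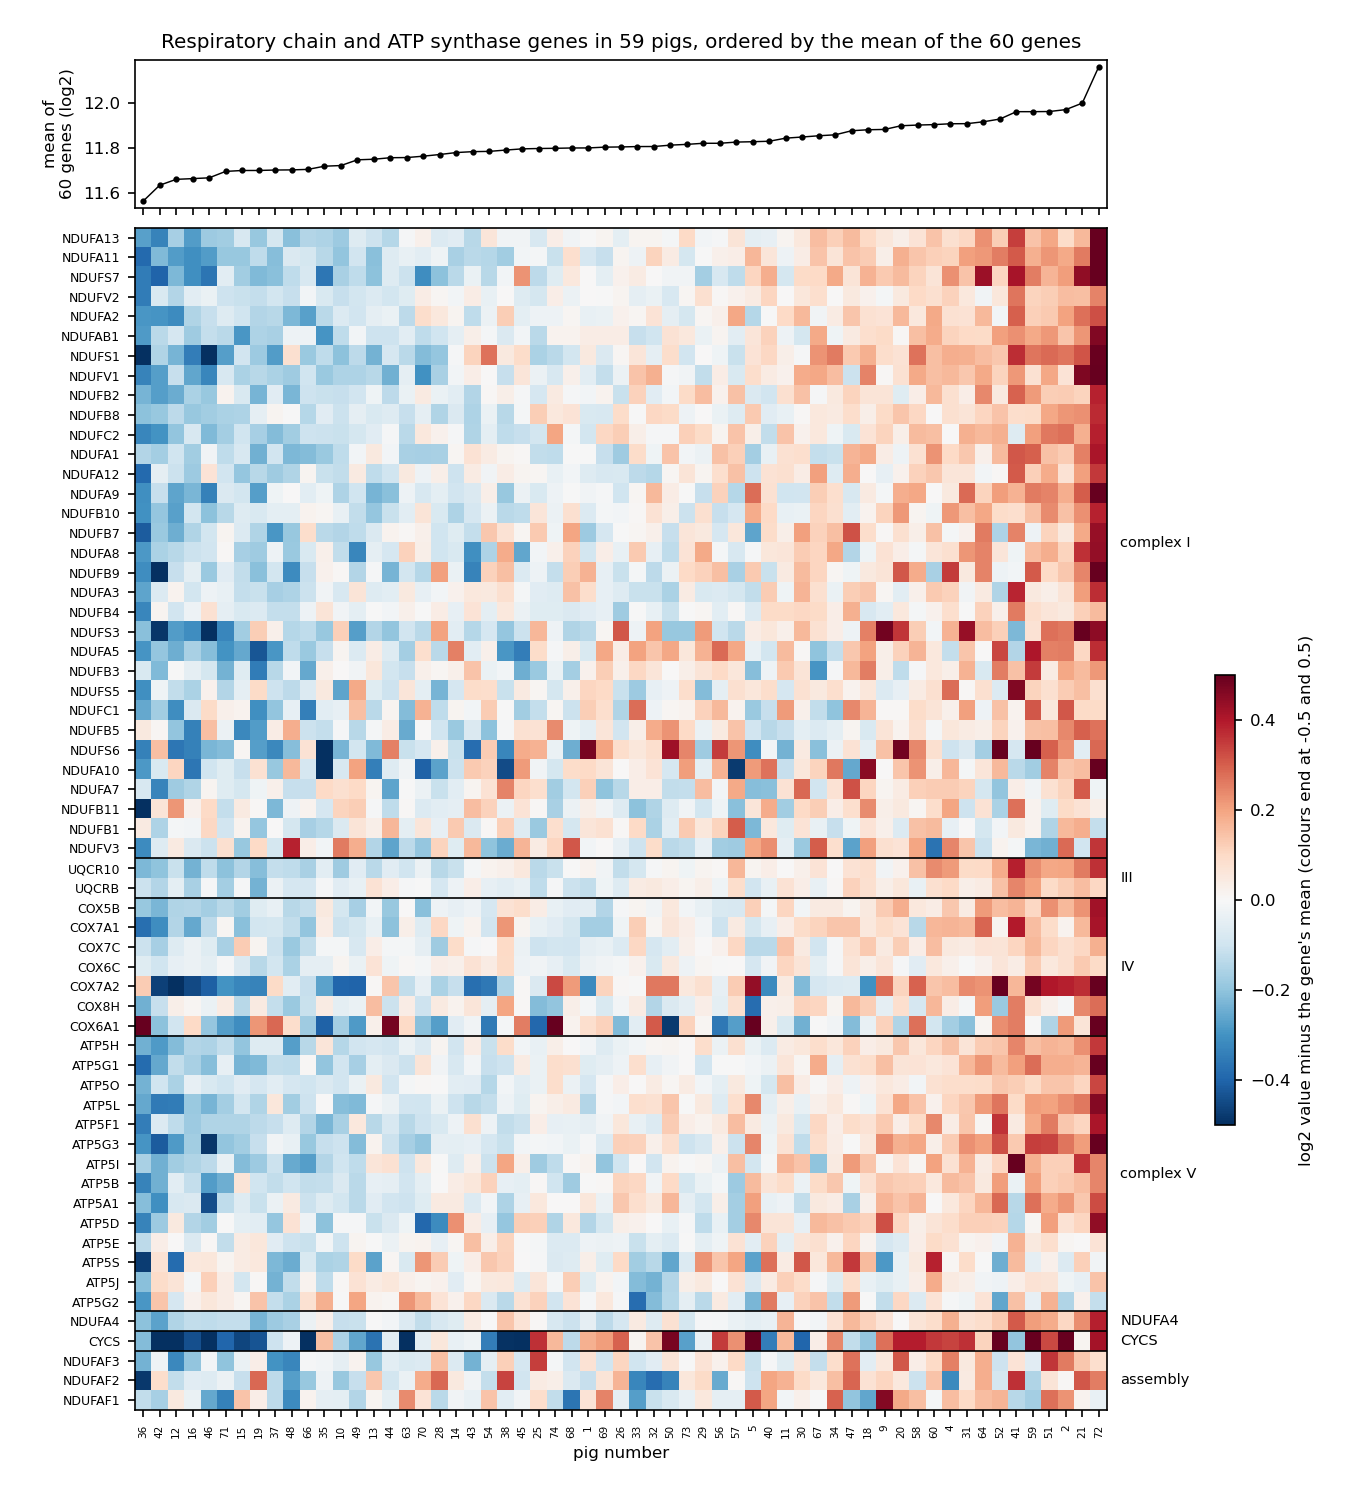
Each row is 1 of the 60 genes, grouped by complex, and each column 1 of the 59 pigs, ordered by the mean of the 60 genes (upper panel, log2). Colours give the log2 value minus the gene's mean, and the colour scale ends at 0.5 in either direction. Most rows run from low in pig 36 to high in pig 72, while NDUFV3, NDUFB1, COX6A1 and ATP5G2 do not.

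Pearson's r between 2 of the 60 genes over the 59 pigs had a median of 0.447 across 1770 pairs and ran from -0.419 to 0.908. It exceeded 0.5 in 42.0% of these pairs, against 2.43% of the pairs among all tested probe sets. The points behind each r share an array and its normalisation, and r is given as a description with no test. The highest r, 0.908, joined NDUFS7 and NDUFV1, which both carry the electron path of complex I. ATP5A1 and ATP5G3 of complex V followed with 0.907, ATP5G3 and ATP5L with 0.892. The lowest r, -0.419, lay between ATP5G2 and COX7A2, and the next, -0.399, between ATP5G2 and COX6A1.

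The median r within a complex was close to that between complexes. The median r was 0.461 within complex I (496 pairs), 0.503 within complex IV (21 pairs) and 0.474 within complex V (91 pairs). Between complexes it was 0.443 for I and IV, 0.458 for I and V, and 0.441 for IV and V. The only pair within complex III, UQCR10 and UQCRB, had an r of 0.779, and both genes were also close to the other complexes, with medians of 0.567 to complex I, 0.602 to complex IV and 0.582 to complex V.

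Averaged over their subunits, the complexes followed each other closely. The means of complexes I and V had an r of 0.939 (Spearman's rho 0.915), and 0.913 without pigs 72 and 36. The within-pig difference between these 2 means had an SD of only 0.037 log2, against SDs of 0.109 for the mean of complex I and 0.092 for that of complex V. Every other pair of complexes had an r between 0.809 (III and V) and 0.856 (I and III), with SDs of the difference from 0.059 to 0.074 log2. The means average 32 genes for complex I, 2 for III, 7 for IV and 14 for V, and averaging more genes evens out more scatter. The pairs of complexes therefore cannot be ranked by these values. The median r of single genes was 0.458 for I and V, and between complexes it ran from 0.441 (IV and V) to 0.602 (III and IV). Complex I had 11.36, 11.65 and 12.02 log2 in the lowest, median and highest pig, complex III 12.93, 13.15 and 13.47, complex IV 12.30, 12.53 and 12.97, and complex V 12.11, 12.38 and 12.67. Pig 72 was highest for complexes I, IV and V, and pig 41 for complex III. Pig 41 also had the highest 3' to 5' control difference, 2.00 log2, whose part in its values was not tested.

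**Figure D2:**
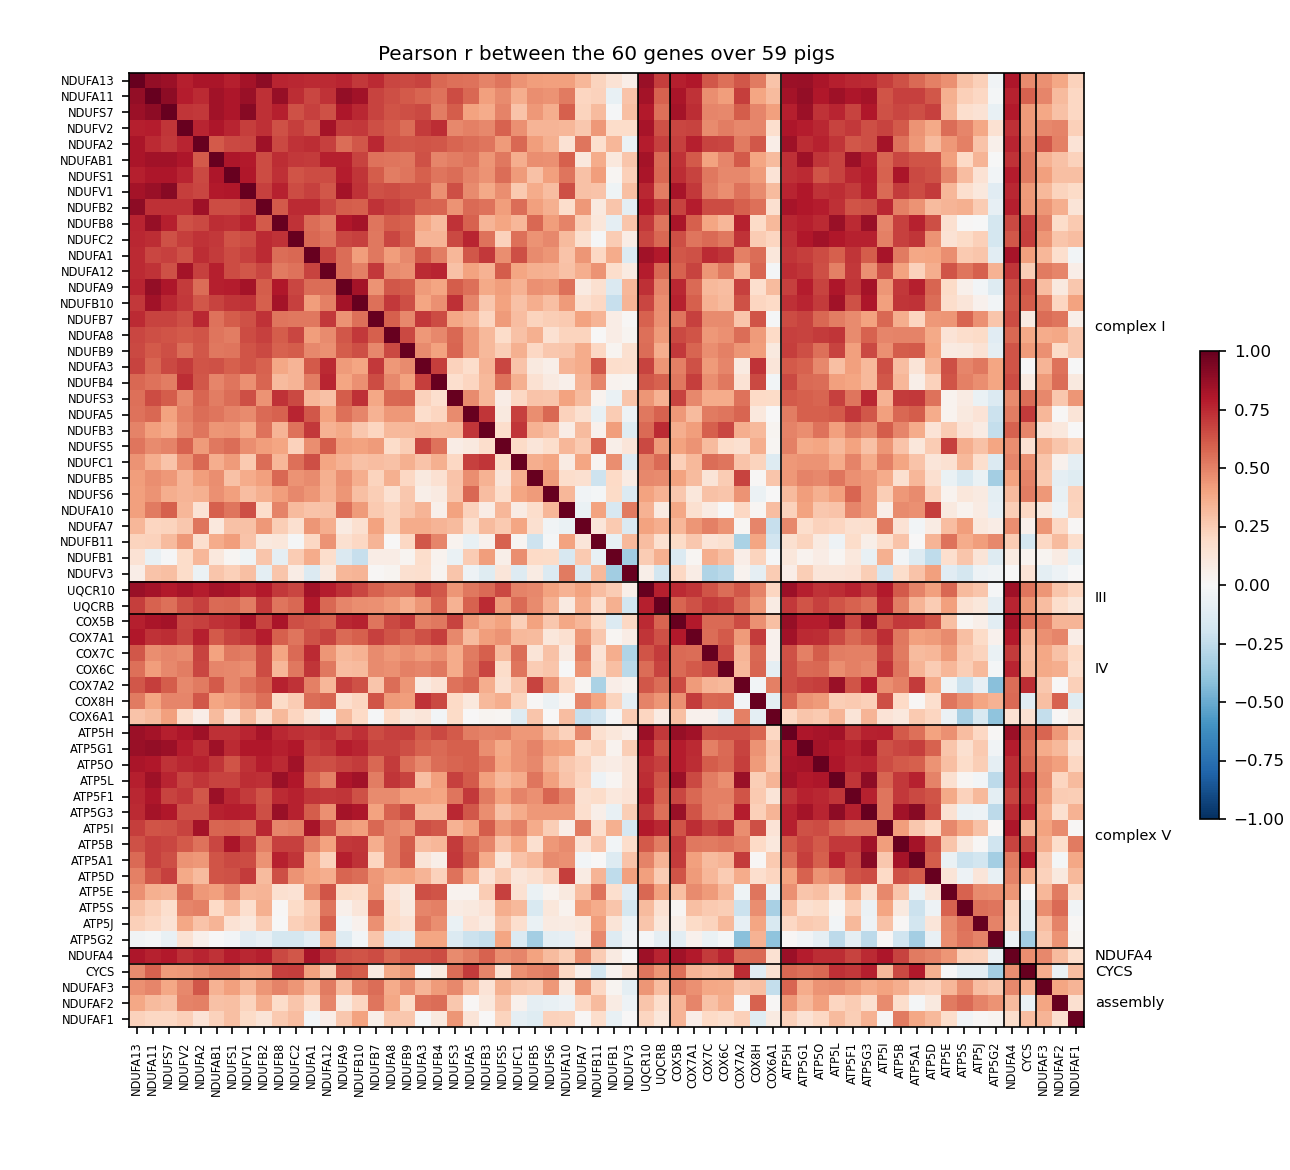
Pearson r between each pair of the 60 genes over 59 pigs, with rows and columns grouped by complex and ordered within it by r with the mean of all other genes. Red of varying depth fills most of the blocks within and between complexes. The pale and blue stripes are NDUFB1, NDUFV3, COX6A1 and ATP5G2, whose r with the mean of the other genes is at most 0.172.

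Individual subunits differed in how closely they followed the rest. The r of a gene with the mean of the other 59 was 0.8 or more for 20 of the 60 and 0.5 or more for 46. NDUFA13 (0.918), NDUFA11 (0.908), both accessory subunits in the membrane arm of complex I, and ATP5H (0.914), part of the peripheral stalk of complex V, were the closest. Complex III's UQCR10 had 0.904 and ATP5G1, one of the genes for the ring-forming c subunit, 0.893. NDUFA4, first described as a complex I protein and now assigned to complex IV, had 0.877.

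Only 4 genes had an r under 0.2. COX6A1 had 0.172, and -0.050 once pig 72 was left out. Its values were 9.74, 10.20 and 11.28 log2 in the lowest, median and highest pig, and the highest, pig 72, lay above a next highest of 10.86. NDUFB1, a small membrane subunit of complex I, had 0.130 and 0.220 without pig 72. NDUFV3, an accessory subunit of the module that oxidises NADH, had 0.109 and -0.003. It was also the dimmest of the 60, with 6.46, 6.82 and 7.21 log2 in its lowest, median and highest pig, close to the filter at 6.27. ATP5G2, another c subunit gene, had -0.006 and 0.051. Its level is not dim, with 11.46, 11.84 and 12.09 log2, lowest in pig 33 and highest in pig 40.

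A second probe set of the same gene gave an independent reading for few of the 60 genes. Only 5 genes had further tested probe sets, 7 in all, whose r with the brightest had a median of 0.569. For NDUFS3 the 2 further probe sets gave 0.170 and 0.874, for NDUFV2 they gave 0.371 and 0.435. The 8 further probe sets below the filter had a median r of 0.001. The 4 genes that stood apart had 1 probe set each.

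To ask which metabolic and cellular features the subunits followed, each tested probe set was regressed on each of 9 covariates that hold none of the 60 genes. These were 8 scores, each the mean of a list of standardised genes, and the level of PPARGC1A, a coactivator that drives mitochondrial biogenesis. A slope is the log2 change per SD of the covariate, from limma over 59 pigs, and adjusted p-values are Benjamini-Hochberg over all probe sets tested, with a threshold of 0.05. Genes past the threshold with a positive slope are called higher with the covariate. The covariates are themselves related. The TCA cycle and fatty acid oxidation scores had an r of 0.879, glycolysis and fast fibre 0.838, glycolysis and heat shock -0.499, and slow fibre and glycolysis -0.474.

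Most of the 60 genes rose with the enzymes that feed the chain. With the fatty acid oxidation score (16 genes such as ACADM and HADHA) 43 of 60 were higher and 0 lower (52 and 0 at an unadjusted p under 0.05), against 5.66% higher and 2.73% lower of all probe sets tested. With the TCA cycle score (13 genes, complex II left out) 42 were higher and 0 lower (51 and 0 unadjusted), against 5.58% and 2.2%. The median slope of the 60 was 0.076 log2 per SD of the fatty acid oxidation score and 0.072 of the TCA cycle score, against -0.0014 and 0.00019 for all probe sets tested. Without pig 72 the counts were 41 and 36, against 4.49% and 4.27% of all probe sets, and all of these genes were also higher in the full set of pigs. Without each score's 2 extreme pigs, those that differ most from its median, the counts were 25 and 24. The share of all probe sets in that last refit is not given.

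The 3 steepest slopes on both scores belonged to NDUFS7, NDUFS1 and NDUFV1, core subunits of complex I that carry electrons. NDUFS7, which holds the last iron-sulphur cluster before ubiquinone, had 11.25, 11.64 and 12.66 log2 in the lowest (pig 42), median and highest pig (pig 72), with 12.10 in the next highest. It rose by 0.19 ± 0.019 (SE) per SD of the fatty acid oxidation score (limma adjusted p = 5.27e-11), and by 0.165 ± 0.021 without pig 72 (limma adjusted p = 1.75e-07). NDUFS1, the largest iron-sulphur subunit, had 10.16, 10.83 and 11.32 log2, lowest in pig 36 and highest in pig 72. Its slope was 0.173 ± 0.018 on fatty acid oxidation (limma adjusted p = 1.44e-10) and 0.175 ± 0.018 on the TCA cycle (limma adjusted p = 9.14e-11). NDUFV1, the subunit that binds NADH and FMN, had 10.44, 10.75 and 11.57 log2, and only pig 72 lay above 11.24. It rose by 0.164 ± 0.015 and 0.156 ± 0.016 per SD of the same scores (limma adjusted p = 2.79e-12 and 1.73e-10).

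All 5 measured core subunits (NDUFV1, NDUFV2, NDUFS1, NDUFS3 and NDUFS7) were higher with both scores, with or without pig 72, and their median slopes were 0.164 and 0.156. Of the 27 other complex I genes, 19 were higher with fatty acid oxidation and 21 with the TCA cycle, with medians of 0.071 and 0.072. NDUFV2 had the flattest slopes of the core, 0.064 and 0.059, below the medians of all 60 genes. NDUFA11 (0.142 and 0.134) was steeper than the core subunit NDUFS3 on fatty acid oxidation (0.125), and the difference between core and accessory subunits was not tested. NDUFA10, an accessory subunit related to nucleoside kinases, had 9.35, 9.96 and 10.51 log2 in the lowest, median and highest pig and slopes of 0.128 and 0.138. NDUFB1 had slopes of -0.018 and -0.020, neither past the threshold (adjusted p = 0.519 and 0.465).

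In complex IV all 7 slopes were positive on both scores. With fatty acid oxidation 5 of the 7 genes were higher and with the TCA cycle 4, and without pig 72 the counts were 4 and 2. COX7A1, the heart and muscle isoform of subunit VIIa, had 12.22, 12.61 and 13.01 log2 in the lowest, median and highest pig, with pigs 36 and 72 at the ends. Its slopes were 0.106 ± 0.015 (limma adjusted p = 1.17e-06) and 0.095 ± 0.016 (limma adjusted p = 3.39e-05). COX5B, a peripheral subunit facing the matrix, had slopes of 0.094 on both scores. The ubiquitous isoforms COX7A2 (0.071 and 0.082) and COX6A1 (0.038 and 0.032) did not pass the threshold on either score (adjusted p from 0.16 to 0.666), and their SEs, between 0.036 and 0.037, were more than double that of COX7A1. Without pig 72 the slopes of COX6A1 were -0.046 and -0.026, again not past the threshold. The within-pig difference COX7A2 minus COX7A1 had an r of -0.134 with fatty acid oxidation and -0.053 with the TCA cycle (permutation tests, adjusted p = 0.38 and 0.711), so that the 2 isoforms were not shown to differ here.

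In complex V, 11 of 14 genes were higher with fatty acid oxidation and 9 with the TCA cycle. ATP5B, the catalytic beta subunit, had 12.94, 13.27 and 13.51 log2 in the lowest, median and highest pig and slopes of 0.090 ± 0.013 and 0.10 ± 0.012 (limma adjusted p = 1.15e-06 and 5.6e-09). ATP5D, the delta subunit of the central stalk, had 10.81, 11.20 and 11.64 log2 and slopes of 0.105 ± 0.016 and 0.121 ± 0.014 (limma adjusted p = 2.3e-06 and 1.88e-09). ATP5G2, ATP5J (coupling factor 6 of the peripheral stalk) and ATP5S (coupling factor B) were the 3 that passed on neither score. UQCR10 of complex III was higher with both (0.093 and 0.079), whereas UQCRB, which helps to form a ubiquinone site, missed the threshold with slopes of 0.036 and 0.034 (adjusted p = 0.0509 and 0.0819). NDUFA4 rose with both (0.093 and 0.085). CYCS had slopes of 0.103 and 0.126 with SEs of 0.049 and 0.048, and passed on neither (adjusted p = 0.193 and 0.0921).

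Fewer subunits followed the contractile type. With the slow fibre score (9 genes such as MYH7 and TNNC1) 24 of 60 were higher and 0 lower (40 and 0 unadjusted), against 2.77% and 1.86% of all probe sets. Without pig 72 only 5 were higher, against 0.751% of all probe sets, namely NDUFA1, NDUFA4, NDUFV1, COX7A1 and ATP5I, and all 24 slopes kept their sign. Without its 2 extreme pigs 6 were higher. NDUFV1 had a slope of 0.121 ± 0.020 (limma adjusted p = 6.08e-05), and 0.092 ± 0.021 without pig 72 (limma adjusted p = 0.0152). NDUFS7 had the steepest slope, 0.134 ± 0.026 (limma adjusted p = 0.00048), which was 0.093 ± 0.026 without pig 72 (limma adjusted p = 0.0651). In whole muscle, a change in the share of slow fibres cannot be told apart from a change in RNA per fibre.

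By complex, 12 of 32 genes of complex I, 2 of 2 of complex III, 2 of 7 of complex IV and 7 of 14 of complex V were higher with the slow fibre score. Without pig 72 these counts were 2, 0, 1 and 1. The slow fibre score also had an r of 0.458 with the endothelial score (5 of 7 listed markers, mean 7.67 to 8.71 log2 over pigs), and the part of vessels in these slopes was not tested.

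**Figure D3:**
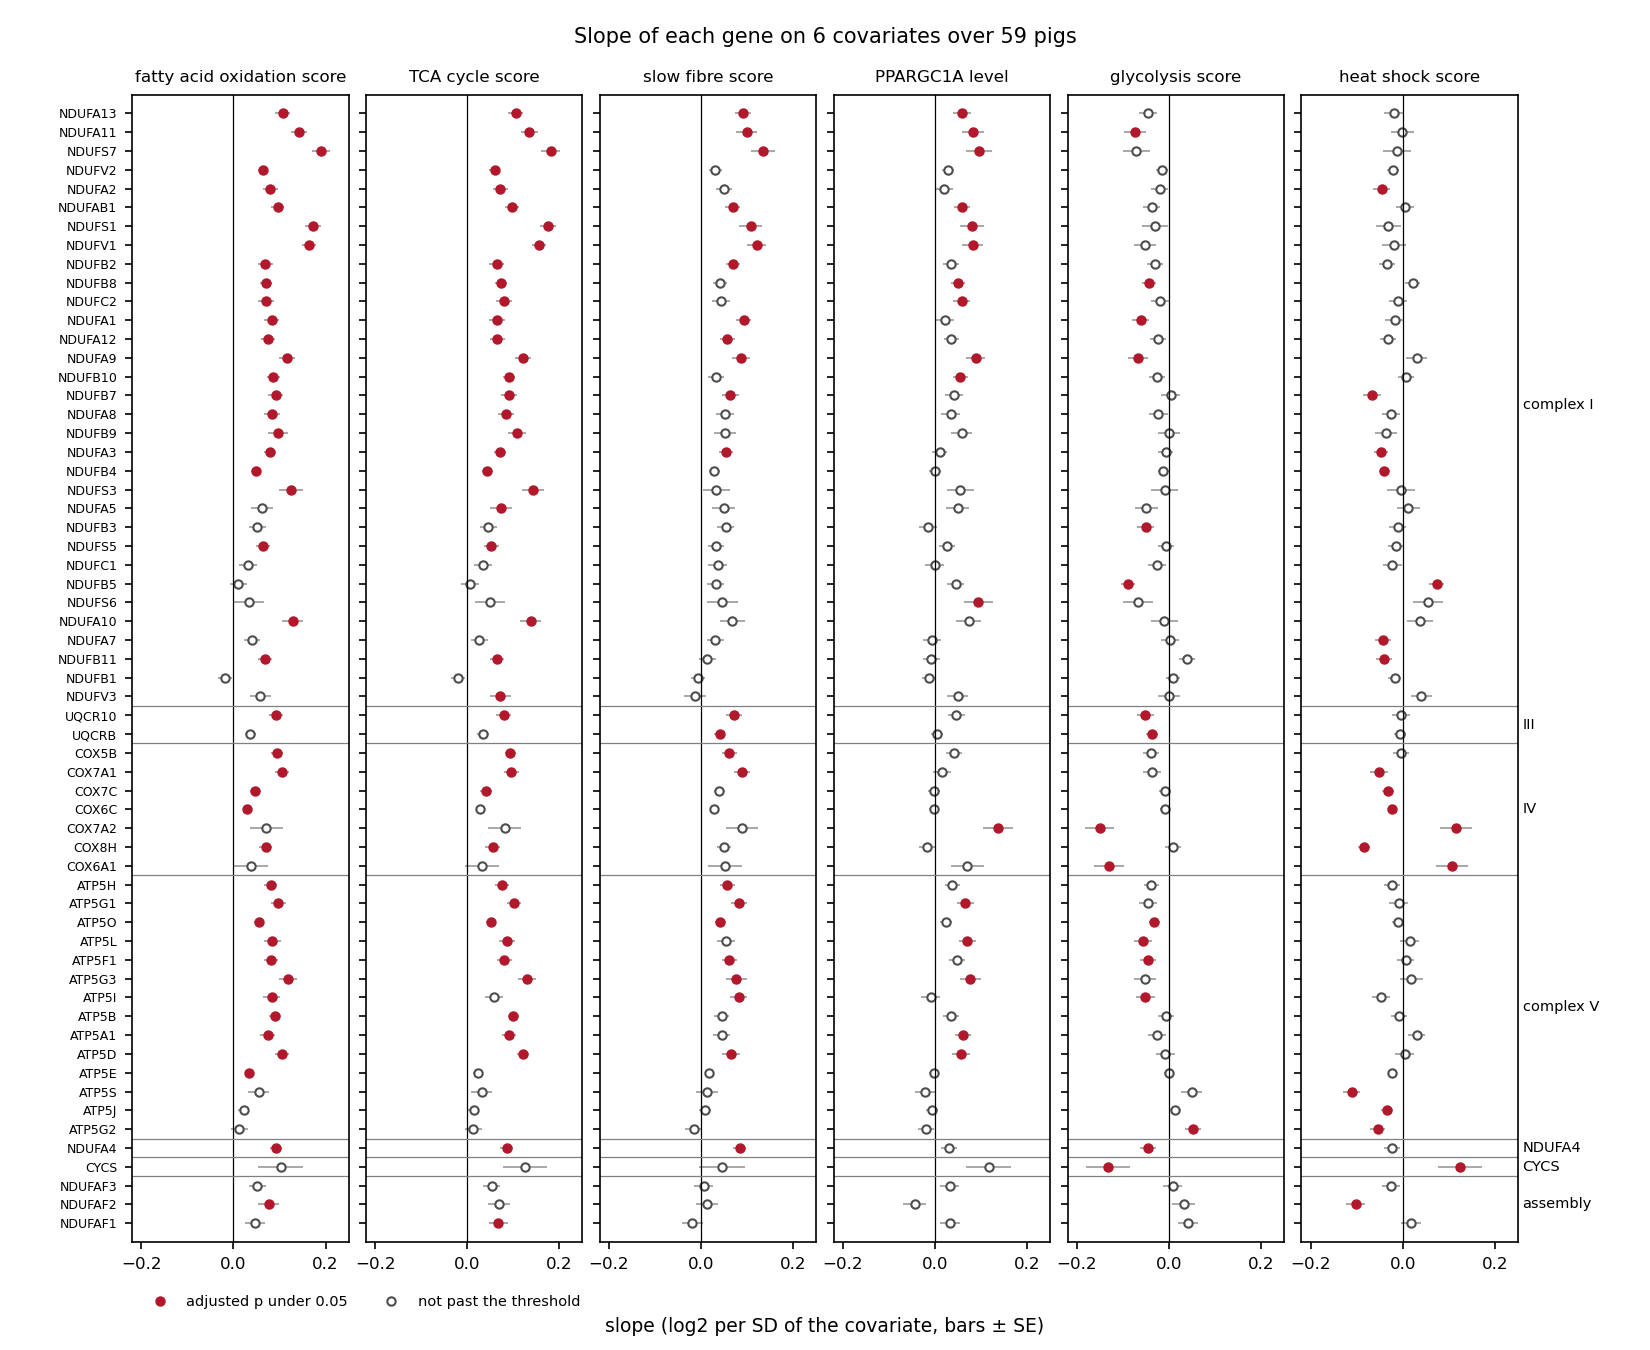
Slope of each of the 60 genes (rows, grouped by complex) per SD of 6 covariates over 59 pigs, with bars of ± 1 SE. Filled points passed an adjusted p of 0.05. Nearly all points lie right of 0 for fatty acid oxidation and the TCA cycle (59 of 60 each), whereas the heat shock panel has 4 filled points on the right and 14 on the left.

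PPARGC1A itself varied widely, with 7.47, 8.59 and 11.17 log2 in the lowest, median and highest pig. With its level 17 of 60 genes were higher and 0 lower (30 and 0 unadjusted), against 8.92% and 7.09% of all probe sets. Without pig 72 the count was 6, a share not far above the 7.28% of all probe sets. These were NDUFA9, NDUFA11, COX7A2, ATP5A1, ATP5G1 and ATP5L. The steepest slope was that of COX7A2, the ubiquitous isoform, with 10.84, 11.37 and 12.04 log2 in the lowest, median and highest pig. It rose by 0.136 ± 0.033 per SD of PPARGC1A (limma adjusted p = 0.00349), and by 0.122 ± 0.034 without pig 72 (limma adjusted p = 0.0114). COX7A1 was not past the threshold. None of UQCR10, UQCRB, NDUFAF1, NDUFAF2 and NDUFAF3 was called.

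With the glycolysis score (11 genes such as PFKM and LDHA) 16 of 60 were lower and 1 higher, against 14.8% lower and 18.1% higher of all probe sets. These counts depended on few animals: without pig 72, 4 were lower (COX7A2, CYCS, NDUFB5 and UQCRB) and 2 higher (ATP5G2 and NDUFB11), against 14.8% lower and 17.9% higher of all probe sets. Both shares of the 60 genes then lay below the background. COX7A2 had the steepest slope, -0.150 ± 0.032 (limma adjusted p = 0.000212), and -0.140 ± 0.036 without pig 72 (limma adjusted p = 0.00202). NDUFB5, a membrane subunit of complex I with 12.16, 12.51 and 12.80 log2 in the lowest, median and highest pig, fell by 0.088 ± 0.015 (limma adjusted p = 9.23e-06). COX6A1 fell by 0.129 ± 0.033 (limma adjusted p = 0.00165), and by 0.082 ± 0.035 without pig 72 (limma adjusted p = 0.0658). ATP5G2 rose by 0.053 ± 0.017 (limma adjusted p = 0.012).

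The heat shock score (14 chaperone genes such as HSPH1, DNAJB1 and HSPB1) was followed by some of the 60 genes upwards and by others downwards. Over all probe sets 23.2% were higher and 21.9% lower with it, so that many genes of the muscle followed it. Of the 60 genes 14 were lower (23.3%), near that background, and 4 were higher (6.67%), below it. Neither count exceeded the background by much, and the genes are described singly. The 4 higher genes were COX7A2, COX6A1, CYCS and NDUFB5. The 14 lower ones included COX7A1, COX8H, COX7C and COX6C of complex IV, ATP5S, ATP5G2 and ATP5J of complex V, NDUFB7 of complex I and the assembly factor NDUFAF2. The same 4 were higher and the same 14 lower without pig 72, and ATP5I was then lower as well, against 23.3% higher and 22% lower of all probe sets. Without the 2 pigs farthest from the score's median 4 were higher and 5 lower. The score had an r of -0.205 with the 3' to 5' control difference, and with that difference as an added term 4 were higher and 9 lower. Shares of all probe sets are not given for these last refits.

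Within complex IV, 2 of 7 genes were higher and 4 lower with the heat shock score, and COX5B had a slope of -0.005 ± 0.018 (adjusted p = 0.843). COX7A2 rose by 0.116 ± 0.034 per SD (limma adjusted p = 0.00434). COX6A1 rose by 0.107 ± 0.034 (limma adjusted p = 0.00856). Both are the ubiquitous forms of their subunits. COX8H, named in cattle as the heart isoform of subunit VIII, had 13.12, 13.52 and 13.78 log2 in the lowest (pig 5), median and highest pig (pig 72). It fell by 0.084 ± 0.014 (limma adjusted p = 7.81e-07). COX7A1 fell by 0.051 ± 0.019 (limma adjusted p = 0.0255). COX7C fell by 0.033 ± 0.013 and COX6C by 0.023 ± 0.009, and neither has a tissue isoform known to be encoded by another gene.

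Outside complex IV, CYCS rose by 0.125 ± 0.048 per SD of the heat shock score (limma adjusted p = 0.0278) and NDUFB5 by 0.073 ± 0.016 (limma adjusted p = 0.000228). ATP5S had 8.89, 9.38 and 9.75 log2 in the lowest, median and highest pig and fell by 0.11 ± 0.018 (limma adjusted p = 1.38e-06). NDUFAF2, an assembly factor of complex I, had 6.54, 7.03 and 7.39 log2 and fell by 0.102 ± 0.021 (limma adjusted p = 5.59e-05). None of the 5 core subunits of complex I was called, and their median slope was -0.019.

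**Figure D4:**
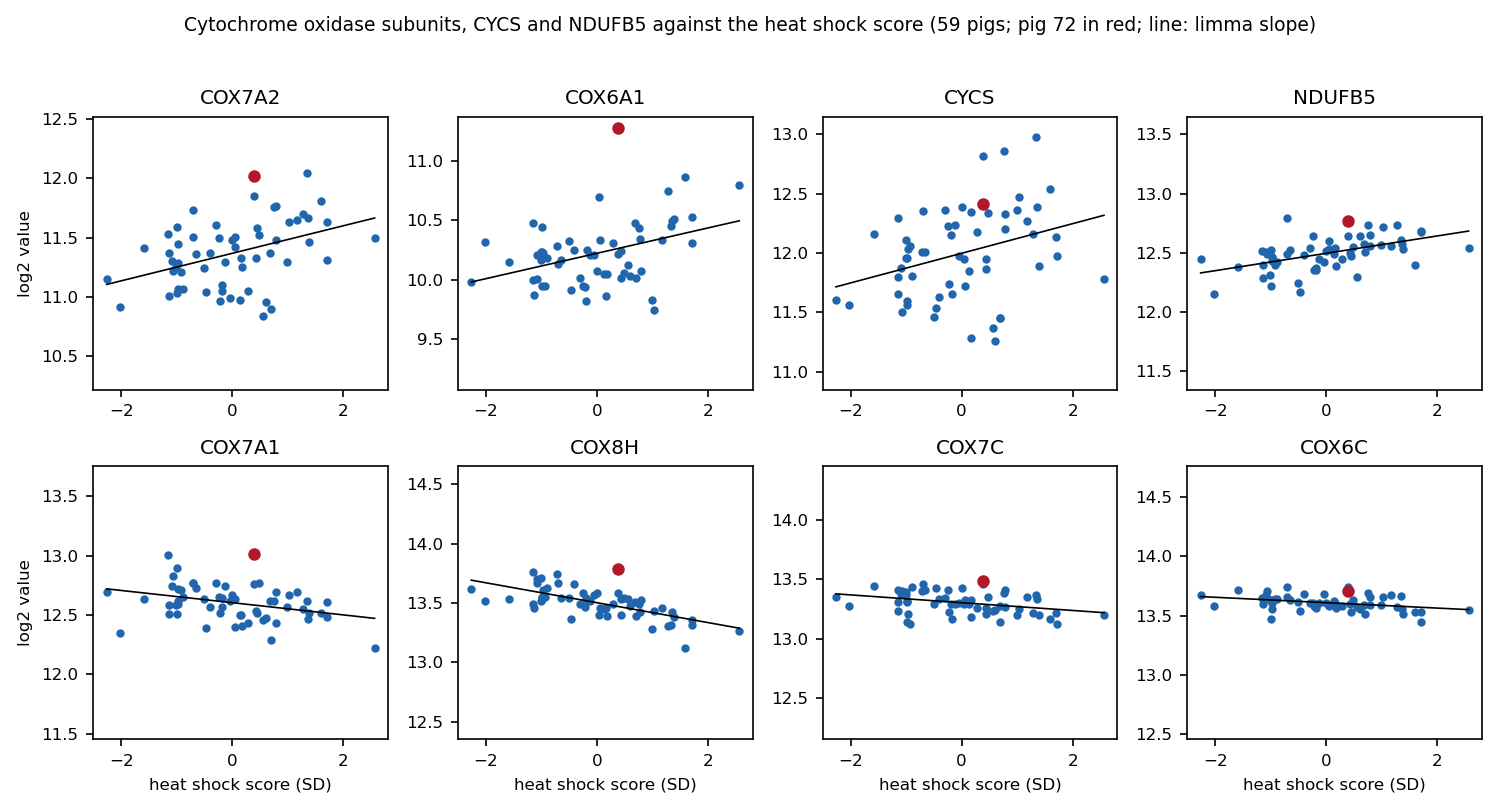
Log2 value of 8 genes against the heat shock score (SD) in 59 pigs, with the limma slope as a line and pig 72 in red. Each panel spans the same log2 range. COX7A2, COX6A1, CYCS and NDUFB5 (upper row) slope upwards, whereas COX7A1, COX8H, COX7C and COX6C (lower row) slope downwards with less scatter.

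The cytosolic ribosomal protein score (61 genes) ran against 12 of the 60 genes and with none (21 lower and 5 higher unadjusted), against 3.58% lower and 5.1% higher of all probe sets. The score itself had an r of -0.542 with the TCA cycle score and -0.475 with the fatty acid oxidation score. Whether its slopes are separate from those on these 2 scores was not tested. ATP5A1, the alpha subunit of complex V, had 13.11, 13.54 and 13.88 log2 in the lowest, median and highest pig and fell by 0.091 ± 0.015 (limma adjusted p = 6.76e-05). The core of complex I had 3 of 5 genes lower and the F1 part of complex V (ATP5A1, ATP5B, ATP5D and ATP5E) 3 of 4. Over all 60 genes the count of 12 lower was 3, with 2 genes higher, when each array was re-centred on its median. It therefore depends on how arrays are scaled. Without pig 72, 8 of 60 were lower and 0 higher, against 2.68% and 3.63% of all probe sets. The core of complex I then had 2 of 5 lower and the F1 part 3 of 4.

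Few genes followed the adipocyte and macrophage markers. With the adipocyte score (4 of 10 listed markers, CFD, CIDEA, FABP4 and LEP, mean 8.08 to 9.08 log2 over pigs) 1 of 60 genes was lower and 0 higher (7 and 3 unadjusted), against 9.91% lower and 5.87% higher of all probe sets. That gene was NDUFS6, a complex I subunit that binds zinc, with a slope of -0.091 ± 0.032 (limma adjusted p = 0.0397). Its values were 9.45, 9.98 and 10.69 log2 in the lowest, median and highest pig. Without pig 72 NDUFA9 was lower too. With the macrophage score (8 of 12 listed markers, mean 6.19 to 8.17 log2) none was called, against 7.01% higher and 2.41% lower of all probe sets, and 1 was higher and 3 lower unadjusted. Without pig 72, COX6A1 was higher with it (0.105 ± 0.030, limma adjusted p = 0.0146). The endothelial score was not fitted as a covariate. Its r was 0.296 with the mean of the 60 genes and 0.464 with the fatty acid oxidation score, against r with the same mean of -0.072 for the adipocyte and -0.139 for the macrophage score. The part of endothelial RNA in the slopes on fatty acid oxidation was not tested.

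Isoform pairs could be compared for 4 of the 11 pairs listed, since both genes had to be on the array. Levels are not comparable between probe sets, so only their variation between pigs is read. For COX7A1 and COX7A2 r was 0.426 and rho 0.399 (permutation tests, adjusted p = 0.0017 and 0.00382 over 4 pairs), and r was 0.406 without pigs 72 and 36. These tests ask whether r is 0, and an r of this size is ordinary among the 60 genes, whose pairs had a median of 0.447. ATP5G1 and ATP5G3 were close, with an r of 0.830 and a rho of 0.778 (permutation tests, adjusted p = 4e-05 for each, from the smallest p that 100000 resamples can give) and an r of 0.796 without the same 2 pigs. These genes encode the same mature c subunit behind different import signals.

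ATP5G2, the third gene for that subunit, did not go with them. Its r with ATP5G1 was -0.037 (rho -0.015, permutation tests, adjusted p = 0.78 and 0.909). With ATP5G3 it was -0.260 (rho -0.284, permutation tests, adjusted p = 0.0642 and 0.041). Without pigs 33 and 36, the 2 farthest from the median of ATP5G2, that r was -0.338 with an adjusted p of 0.0133 by the same test.

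The within-pig difference of each pair was then set against the 9 covariates, 36 relations in all, a choice made after seeing the data. COX7A2 minus COX7A1 was -1.63, -1.24 and -0.57 log2 in the lowest, median and highest pig. It rose with the heat shock score with an r of 0.640 and a rho of 0.588 (permutation tests, adjusted p = 0.00018 and 0.00036), and the r was 0.595 without the 2 pigs farthest from the score's median. It rose with PPARGC1A (r = 0.463, rho = 0.492, permutation tests, adjusted p = 0.00165 and 0.00096) and fell with the glycolysis score (r = -0.436, rho = -0.339, permutation tests, adjusted p = 0.00207 and 0.0241). It also fell with the adipocyte score (r = -0.341, rho = -0.330, permutation tests, adjusted p = 0.0176 and 0.0281), with an r of -0.385 without that score's 2 extreme pigs and an adjusted p of 0.0841 when a gene's probe sets were averaged. With the slow fibre score it had an r of 0.00037. The heat shock score itself had an r of 0.337 with PPARGC1A, -0.480 with the adipocyte score and -0.499 with the glycolysis score. PPARGC1A and the adipocyte score had an r of -0.355. The part of each of these covariates in the difference was not tested.

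ATP5G3 minus ATP5G2 was 0.53, 1.07 and 1.73 log2 in the lowest, median and highest pig. It fell with the ribosomal protein score (r = -0.550, rho = -0.525, permutation tests, adjusted p = 0.00018 and 0.0009), with an r of -0.582 without the score's 2 extreme pigs. The same difference rose with TCA cycle (r = 0.452), fatty acid oxidation (0.411), PPARGC1A (0.374) and slow fibre (0.355), and fell with glycolysis (-0.410). Permutation tests of these r gave adjusted p from 0.00165 to 0.0136. Without each covariate's 2 extreme pigs they were 0.412 (TCA cycle), 0.334 (fatty acid oxidation), 0.407 (PPARGC1A), 0.240 (slow fibre) and -0.216 (glycolysis). The part of each covariate was not tested. ATP5G2 minus ATP5G1 rose with the ribosomal protein score (r = 0.466, rho = 0.451, permutation tests, adjusted p = 0.00162 and 0.00351). It fell with the slow fibre score (r = -0.474, rho = -0.408, permutation tests, adjusted p = 0.00162 and 0.00736), and that r was -0.348 without the score's 2 extreme pigs. ATP5G2 minus ATP5G1 also fell with TCA cycle (r = -0.428), PPARGC1A (-0.412) and fatty acid oxidation (-0.410), and rose with glycolysis (0.473). Permutation tests of these r gave adjusted p from 0.00165 to 0.00409. Without each covariate's 2 extreme pigs the r was -0.318 with TCA cycle, -0.397 with PPARGC1A, -0.242 with fatty acid oxidation and 0.259 with glycolysis.

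**Figure D5:**
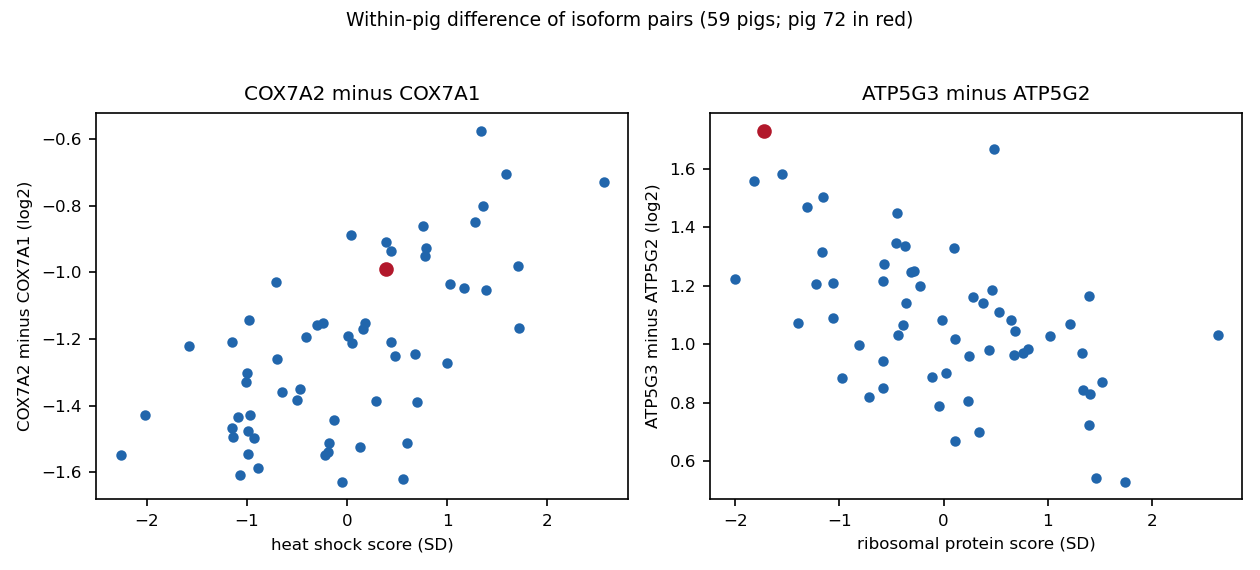
Within-pig difference of the log2 values of 2 isoforms against a score (SD) in 59 pigs, with pig 72 in red. COX7A2 minus COX7A1 climbs with the heat shock score (r = 0.640), and ATP5G3 minus ATP5G2 declines with the ribosomal protein score (r = -0.550).

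Other genes of the pathway followed the same features. Complex II, which links the TCA cycle to the chain, was measured by all 4 of its genes, and all 4 were higher with the fatty acid oxidation, TCA cycle and slow fibre scores. SDHA, its flavoprotein, had 10.94, 11.44 and 12.00 log2 in the lowest, median and highest pig and slopes of 0.167 ± 0.015 on both fatty acid oxidation (limma adjusted p = 3.07e-12) and the TCA cycle. SDHC, a membrane anchor, fell by 0.127 ± 0.028 with the heat shock score, and the other 3 were not called there. Of 30 listed assembly and accessory factors outside the NDUFAF genes, 11 were on the array and 10 were tested. Of these, 7 were higher with fatty acid oxidation, 7 with the TCA cycle, 3 with the slow fibre score and 3 with the PPARGC1A level.

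ATPAF1, which helps to assemble the F1 part of the ATP synthase, had 8.15, 8.61 and 9.08 log2 in the lowest, median and highest pig and rose by 0.162 ± 0.018 per SD of the fatty acid oxidation score (limma adjusted p = 2.33e-09). OXA1L, which inserts proteins into the inner membrane, had 10.26, 10.81 and 11.08 log2 and rose by 0.127 ± 0.017 (limma adjusted p = 1.54e-07). Of 11 listed regulators of mitochondrial gene expression, PPARGC1A, TFAM, YY1 and TFB1M were on the array. None of these 4 was called with the fatty acid oxidation, TCA cycle or slow fibre score. TFAM, which packages and transcribes mitochondrial DNA, had an r of 0.464 with the mean of the 60 genes, and YY1 one of -0.209. The score of 58 mitochondrial ribosomal protein genes had an r of 0.673.

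Among 4868 other tested genes, those most like the mean of the 60 standardised genes were LOC100524308 (r = 0.874), APOO (0.871), LOC100524873 (0.870), LOC100522678 (0.863) and ACOT13 (0.861). ETFA (0.851), ATPIF1 (0.850), USMG5 (0.826), LOC100156967 and LOC100525869 (both 0.817) came next. APOO shapes the cristae, ACOT13 is a mitochondrial thioesterase, ETFA carries electrons from fatty acid oxidation and is part of that score, ATPIF1 inhibits the ATP synthase when it runs backwards, and USMG5 is a small protein of that enzyme. The lowest r belonged to RAC1 (-0.629), a small GTPase, CD151 (-0.616), a membrane tetraspanin, the ribosomal protein genes RPL7 (-0.589) and RPS4X (-0.576), and EF1ALPHA (-0.569), an elongation factor. Some of these genes belong to the scores used above. The r describe 59 arrays that share a normalisation and carry no test.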

How the data were processed

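Total RNA of 59 muscles was labelled as biotinylated cRNA and hybridised to Affymetrix porcine arrays, per the labels' protocols. The deposited values are 1 normalised value per probe set and array, made by the authors with GCRMA, per the submitters' processing notes. No label names the log base, and the deposited values (2.39 to 15.04) were read as log2. GCRMA compresses differences of dim genes.

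Probe sets were named from the platform's annotation table, using 10099 with 1 symbol of 24123 in all. After removing 124 controls, the brighter 12000 probe sets were tested, whose mean reached the median over probe sets (6.27 log2). A gene was represented by its brightest probe set. Near-identical copies of a subunit gene may share probes, which was not tested. A score is the mean of the standardised log2 values of a list's measured genes, scaled to an SD of 1. The ribosomal list was taken by symbol and so includes RPS19BP1. Probe sets of a score's own genes were left out of its fit. Slopes came from limma 3.58.1 (lmFit and eBayes, R 4.3.3), with Benjamini-Hochberg adjustment over all probe sets tested. The fit was also run on simulated data with independent probe sets. That check cannot speak for calls among the correlated genes measured here. Permutation tests used 100000 resamples, two-sided, in Python 3.11.15 (numpy 2.4.6, scipy 1.17.1), and figures used matplotlib 3.10.9.

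The members, the gene lists and the covariates were chosen with earlier results of these data known. Genes were named for their role, or as the highest or lowest of their complex in SD, in r or in a slope. Each pig gave 1 array, so p-values rest on a spread that mixes differences between pigs with measurement noise. These parts cannot be told apart here. Promoters and proteins were not analysed here.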

Additional observations from a re-analysis of the deposited data

How the results depend on the processing

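Counts of genes called with each covariate were recomputed under 8 other settings and also without pig 72. Isoform pairs and r between complexes were recomputed under the settings that apply to them. Leaving out pig 72 and the isoform differences were added after seeing the data. Of the values taken as main results, 218 stayed within 1.5 times or on the same side of the threshold. The main results that shifted are listed here. Of the other values recomputed, 281 were scored as the same and 34 as weaker, and these 34 are not listed. Counts under settings other than leaving out pig 72 have no share of all probe sets beside them. Without the covariate's 2 extreme arrays, higher counts were 6 (slow fibre), 24 (TCA cycle), 25 (fatty acid oxidation), 1 (ribosomal protein) and 1 (adipocyte), and lower counts 2 (glycolysis) and 5 (heat shock). Without pig 72 they were 5 higher with slow fibre, 6 with PPARGC1A, 2 with glycolysis and 1 with macrophage, and 4 lower with glycolysis and 2 with adipocyte. With arrays re-centred, glycolysis had 2 higher and 7 lower, heat shock 7 lower, and ribosomal protein 2 higher and 3 lower. With quantile normalisation glycolysis had 2 higher and 8 lower and adipocyte 0 lower. With a gene's probe sets averaged glycolysis had 4 higher and adipocyte 2 lower. With ranks of the covariate glycolysis had 9 lower and adipocyte 0 lower, and with no filter adipocyte had 0 lower. With the 3' to 5' control difference as a term glycolysis had 2 higher and heat shock 9 lower, and with the first principal component ribosomal protein had 2 higher. The r of ATP5G1 and ATP5G2 was 0.018 under quantile normalisation and 0.022 without pig 72, and that of ATP5G2 and ATP5G3 was -0.338 without the 2 extreme pigs. Apart from the arrays left out, the cause of these shifts was not tested. No principal component exists for the single gene PPARGC1A. The steepest called slopes, 26 in all, kept their sign in all 230 refits and lost the threshold in 26 of them.

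The number of arrays and the compressed ends of the GCRMA scale limit what can be seen, most of all for NDUFV3, NDUFAF1 and NDUFAF2, which lie close to the filter.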
